A study of Mus musculus with 24 samples.

Results

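The genes described here are 36 genes of mitosis and proliferation, chosen by name: cyclins and their kinase Cdk1, mitotic kinases, spindle and kinetochore proteins, and enzymes of DNA replication. A gene was followed on the probe set that carried exactly its symbol and had the highest mean over 24 arrays. Of the 36 genes, 35 had such a probe set among 18193 genes on the array. Ccnb1 had none. After a filter on dim genes, 32 were tested among 14215 genes, while Kif23, Tyms and Ndc80 exceeded their array's 40th percentile of intensity on 0 arrays and were not tested. A comparison of these genes between arms, and after IL-1b, asks how the share of dividing cells, or the cell cycle RNA in them, differed.

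The study measured total RNA from embryonic cortical neurons of Il1rap-/- mice, which lack the accessory protein of the IL-1 receptor, on one-colour Affymetrix arrays. The cells were made to express AcP, the usual accessory protein, AcPb, an isoform of it made in the nervous system, both of them, or CD25, a chain of the IL-2 receptor that plays no part in IL-1 binding. Each arm received either IL-1b, at 10 ng/ml for 4 h, or the control stimulus, and each of the 8 groups had 3 arrays. The question of the study was which accessory protein lets these neurons respond to IL-1b. The groups were AcP+AcPb neurons with IL-1b and with control stimulus, AcP neurons with both, AcPb neurons with both, and CD25 neurons with both. All 8 groups therefore shared the Il1rap-/- genotype and a serum-free medium with B-27 supplement. How the coding sequences were brought into the cells, the embryonic age and whether replicates were separate cultures are not stated in the sources at hand. The p-values therefore cover the variation among these arrays alone, part of which may be technical.

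Array medians lay between 55.1 and 66.5 intensity units, and replicate arrays correlated at means of 0.976 to 0.987 within groups. Of the 18 neuron markers checked, 17 were on the array, and all 17 passed the dim filter, with group means from 415 (Slc17a7 in AcPb neurons with IL-1b) to 8774 (Stmn2 in AcP neurons with IL-1b). Their summed intensity ran from 57807 to 60522 on AcP+AcPb arrays, 58084 to 63996 on AcP arrays, 56798 to 59796 on AcPb arrays and 54479 to 59982 on CD25 arrays. Of the 13 markers of neural progenitors, 12 were on the array, and Eomes alone had a group mean at or below 0. Of 13 microglia markers, Aif1, C1qa and C1qc had means at or below 0 in every group, while the 5 that passed the filter (Csf1r, C1qb, Cd68, Trem2 and Tyrobp) had group means from 11.7 to 636. Endothelial Pecam1 had means at or below 0 in every group. A code in the array names was 21 on every CD25, AcP and AcPb array, 22 on AcP+AcPb controls 1 and 2, and 23 on AcP+AcPb control 3 and the AcP+AcPb IL-1b arrays. The labels do not say what it stands for, and the code and the AcP+AcPb arm cannot be told apart against the other arms. Within that arm, the code also sets controls 1 and 2 apart from the IL-1b arrays.

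Cdk1, bound to B-type cyclins, drives a cell into mitosis, and the anaphase-promoting complex with Cdc20 lets it leave again by marking cyclin B for destruction. Transcripts of mitotic genes rise together in G2, when the MuvB complex with B-Myb and FoxM1 acts at a short promoter element called CHR and NF-Y acts at CCAAT boxes, while genes of DNA synthesis rise earlier through E2F. Neurons have left the cell cycle, so in cortical cultures these transcripts are known mainly from progenitors and glia that still divide.

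Promoter sequences were taken from RefSeq (mouse build GRCm38.p6), 250 bases before to 50 after each start, and 30 of the 36 genes had one in the table used. The CHR letters TTTGAA, or TTCAAA on the other strand, occurred in 17 of the 30 (56.7%), against 17.9% of 32851 promoters of the same length. Here a member counted if any of its promoters held the letters, while the share of all counts each promoter singly. The CCAAT box, CCAAT or ATTGG, occurred in 22 of 30 (73.3%), against 37.4% of all promoters. Both occurred in 15 of 30 (50%), against 6.95%. The E2F letters TTTCCCGC, or GCGGGAAA, occurred in Pclaf alone (3.33%, against 1.07% of all), and TTTGGCGC, or GCGCCAAA, in none (0.514% of all). In the members' promoters no match shared bases with a match of another motif, and a match is a run of letters, not a shown binding site. Stretches from 130 bases before to 20 after the start are printed for 6 members on which the results turn, 5 with CHR and CCAAT matches and Pcna, with a CCAAT match only, in lower case with the matches in capitals. The Ccnb2 stretch lies at chr9:70421535-70421684 on the minus strand, that of Cdk1 at chr10:69352893-69353042 on the minus strand and that of Top2a at chr11:99024170-99024319 on the minus strand. That of Ube2c lies at chr2:164769799-164769948 on the plus strand, that of Cdc20 at chr4:118437324-118437473 on the minus strand and that of Pcna at chr2:132253161-132253310 on the minus strand, and each is written 5′ to 3′ on its gene's strand.
Ccnb2: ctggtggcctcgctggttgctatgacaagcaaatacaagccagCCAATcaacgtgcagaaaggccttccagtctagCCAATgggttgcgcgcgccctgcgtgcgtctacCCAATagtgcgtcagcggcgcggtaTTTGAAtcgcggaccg
Cdk1: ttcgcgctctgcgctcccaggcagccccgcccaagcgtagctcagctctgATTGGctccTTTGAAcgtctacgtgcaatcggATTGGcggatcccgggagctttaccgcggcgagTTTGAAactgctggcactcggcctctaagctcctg
Top2a: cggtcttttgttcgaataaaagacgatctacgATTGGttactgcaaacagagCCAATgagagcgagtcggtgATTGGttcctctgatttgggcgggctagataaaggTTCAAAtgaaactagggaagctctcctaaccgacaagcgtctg
Ube2c: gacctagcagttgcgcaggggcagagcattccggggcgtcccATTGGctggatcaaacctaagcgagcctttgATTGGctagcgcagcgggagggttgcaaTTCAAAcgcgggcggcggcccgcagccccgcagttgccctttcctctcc
Cdc20: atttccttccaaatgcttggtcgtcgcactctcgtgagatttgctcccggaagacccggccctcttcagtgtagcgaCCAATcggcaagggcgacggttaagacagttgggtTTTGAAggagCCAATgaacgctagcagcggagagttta
Pcna: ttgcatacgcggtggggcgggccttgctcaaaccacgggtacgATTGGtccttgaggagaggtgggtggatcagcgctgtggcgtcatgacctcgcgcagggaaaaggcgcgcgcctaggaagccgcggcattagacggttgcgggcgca
Within the printed stretches, the CHR letters of Cdk1 began 71 and 15 bases before the start, those of Ube2c 29 before it and those of Cdc20 18 before it. In Ccnb2 they began at base 5 after the start, downstream of 3 CCAAT boxes, and Top2a held TTCAAA 23 bases before the start. Upstream of the printed stretches, the CHR letters occurred once more in Ccnb2, 167 bases before the start, and in Top2a, 179 before it.

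**Figure D1:**
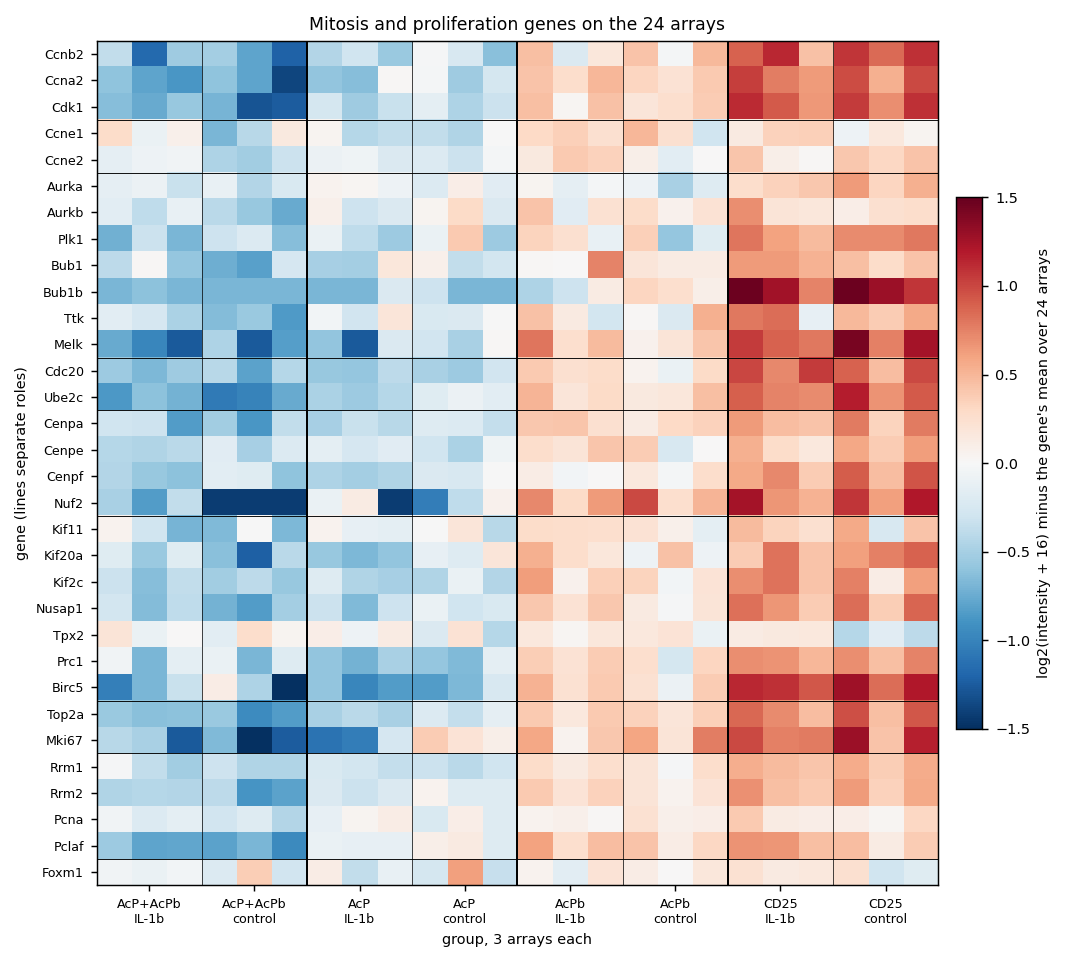
Heat map of the 32 tested members (rows, ordered by role) on the 24 arrays (columns, by group, with IL-1b left of control in each arm). Colour is log2(intensity + 16) minus the gene's mean over the 24 arrays, capped at 1.5 in either direction. CD25 arrays are red in most rows, AcPb arrays pale red, and AcP and AcP+AcPb arrays blue, with Ccne1, Tpx2 and Foxm1 as exceptions.

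Without IL-1b, the mean level of the mitosis genes was lowest in AcP+AcPb neurons, higher in AcP neurons, higher again in AcPb neurons, and highest in CD25 neurons. Against CD25 controls, 29 of the 35 members with a probe set were called lower in AcP+AcPb controls, with Cdk1, Top2a and Ube2c among them, 22 in AcP controls and 14 in AcPb controls, and none was called higher. A call means an adjusted p under 0.05 in limma's test, and log2 changes are on the scale of log2(intensity + 16) with standard errors. Of all 14215 genes, 11.9% were called lower in AcP+AcPb controls, 8.68% in AcP controls and 5.26% in AcPb controls, and 6.81%, 6.86% and 2.36% were called higher. The members' median log2 change against CD25 was -1.15 in AcP+AcPb, -0.82 in AcP and -0.46 in AcPb neurons, beside -0.02, 0.01 and 0.00 over all genes. In bulk RNA, fewer dividing cells and less of this RNA per cell cannot be told apart. All 3 comparisons share the same 3 CD25 controls. The shares of all genes given here also stand beside the counts by role below.

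The order AcP+AcPb, AcP, AcPb, CD25 from low to high held for the group means of 26 of the 32 tested members in controls, beside 10.2% of all tested genes. The exceptions were Aurka, Plk1, Tpx2, Prc1, Ccne1 and Foxm1. The members' mean log2 value was 6.68, 6.51 and 6.53 on the AcP+AcPb controls, 6.96, 6.98 and 6.97 on the AcP controls, 7.43, 7.22 and 7.39 on the AcPb controls, and 7.89, 7.59 and 7.87 on the CD25 controls. The 4 sets of 3 arrays did not overlap. CD25 control 2 was the lowest of its group for 27 of the 32 members, beside 35.7% of all genes, and its astrocyte markers summed to 24678, against 32805 and 32841 on the other CD25 controls. Without that array, 29, 23 and 13 members were called lower in AcP+AcPb, AcP and AcPb controls. Array 2 had the lowest member mean in 6 of the 8 groups.

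Among the cyclins and their kinase, all 3 tested genes were called lower in AcP+AcPb and in AcP controls. Cdk1 read 149, 92.4 and 96.5 in AcP+AcPb controls, 226, 177 and 197 in AcP controls, 286, 303 and 331 in AcPb controls, and 538, 418 and 553 in CD25 controls. Every receptor arm lay below every CD25 control, and AcP+AcPb below AcP. The log2 change of Cdk1 against CD25 was -2.03 ± 0.16 in AcP+AcPb (limma, adjusted p = 3.2e-07), -1.26 ± 0.16 in AcP (adjusted p = 3.0e-05) and -0.68 ± 0.16 in AcPb controls (adjusted p = 0.014). Ccnb2, a B-type cyclin, had means of 39.5 in AcP+AcPb, 64.4 in AcP, 105 in AcPb and 179.9 in CD25 controls. It changed by -1.84 ± 0.24 in AcP+AcPb and -1.30 ± 0.24 in AcP controls, both called, while its -0.71 ± 0.24 in AcPb controls was not (limma, adjusted p = 0.079). Ccna2, the cyclin of S phase and G2, averaged 118 ± 34.6 in AcP+AcPb controls, 189 ± 35.4 in AcP controls, 291 ± 18.7 in AcPb controls and 427 ± 75.8 in CD25 controls (SD, n = 3 each), and was called lower in AcP+AcPb and AcP controls.

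The E-type cyclins, which bind Cdk2 as cells enter S phase, changed by smaller amounts. Ccne2 averaged 62.7 ± 5.84 in AcP+AcPb controls, 77.8 ± 9.49 in AcP controls, 88.6 ± 8.88 in AcPb controls and 122 ± 5.85 in CD25 controls, and all 3 differences from CD25 were called, at -0.81, -0.56 and -0.40. Ccne1 read 398, 483 and 721 in AcP+AcPb controls, 498, 470.5 and 645 in AcP controls, 923, 772 and 526 in AcPb controls, and 615, 726 and 671 in CD25 controls. The Ccne1 arrays of the 4 arms overlapped, and no difference of Ccne1 from CD25 was called, the widest being -0.36 ± 0.20 in AcP+AcPb (95% interval -0.78 to 0.06).

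All 7 mitotic kinases were called lower in AcP+AcPb controls, 4 in AcP controls and 4 in AcPb controls, beside 11.9%, 8.68% and 5.26% of all genes. The calls include Bub1b and Melk in each arm, and Ttk in AcP+AcPb. These 3 genes exceeded the dim filter on 5, 9 and 9 arrays, the 5 of Bub1b all of CD25 neurons. A gene that passes only through the group where it is high has to differ, so the Bub1b calls against CD25 carry no weight. Plk1 read 64.7, 71.0 and 48.4 in AcP+AcPb controls, 77.7, 116 and 52.6 in AcP controls, 113, 51.2 and 72.5 in AcPb controls, and 148, 148 and 157 in CD25 controls. Plk1, the polo-like kinase of centrosomes and kinetochores, lay below all CD25 controls on all 9 arrays of the other arms, with changes of -1.12 ± 0.23, -0.82 ± 0.23 and -0.87 ± 0.23 in AcP+AcPb, AcP and AcPb controls. Aurka, the kinase of spindle poles, changed by -0.76 ± 0.11, -0.59 ± 0.11 and -0.75 ± 0.11, all called. The related kinase Aurkb, of the chromosomal passenger complex, was called in AcP+AcPb, at -0.78 ± 0.17, and not at -0.16 ± 0.17 in AcP or -0.02 ± 0.17 in AcPb controls. Among checkpoint kinases, Bub1 was called lower in AcP+AcPb, at -0.98 ± 0.21, and so was Ttk, at -1.16 ± 0.23. Neither was called in AcP controls, at -0.57 and -0.63, or in AcPb controls, at -0.24 and -0.37. Bub1b, their partner at unattached kinetochores, read -12.7, -20.7 and -18.4 in AcP+AcPb controls, 4.69, -10.8 and -3.52 in AcP controls, 16.2, 14.6 and 11.4 in AcPb controls and 55.6, 46.9 and 38.2 in CD25 controls. Values below 0 were set to 0 before 16 was added, so the size of the Bub1b change, -1.97 ± 0.18 in AcP+AcPb controls, depends on that addition. Melk, a kinase high in dividing progenitors, changed by -1.99 ± 0.25, -1.39 ± 0.25 and -0.92 ± 0.25 in AcP+AcPb, AcP and AcPb controls, also near the floor of the array.

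Both genes of the anaphase-promoting complex were called lower in all 3 receptor arms. Ube2c read 73.1, 76.5 and 94.4 in AcP+AcPb controls, 147, 159 and 151 in AcP controls, 190.3, 193 and 238 in AcPb controls, and 405, 282 and 337 in CD25 controls. Ube2c, the ubiquitin-conjugating enzyme of the complex, did not overlap between any pair of arms. It had the smallest adjusted p of the members, with -1.87 ± 0.12 in AcP+AcPb (limma, adjusted p = 4.6e-08), -1.07 ± 0.12 in AcP and -0.67 ± 0.12 in AcPb controls. Cdc20, the activator of the complex, averaged 152 ± 24.8 in AcP+AcPb controls, 164 ± 17.4 in AcP controls, 244 ± 35.7 in AcPb controls and 408 ± 76.8 in CD25 controls, with changes of -1.33 ± 0.14, -1.22 ± 0.14 and -0.70 ± 0.14.

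The 4 tested centromere and kinetochore genes were called lower in AcP+AcPb and in AcP controls, among them Nuf2, which exceeded the dim filter on 13 arrays. Cenpa, the histone H3 variant that marks centromeres, averaged 55.9 ± 12.3 in AcP+AcPb controls, 73.9 ± 5.34 in AcP controls, 112 ± 10.4 in AcPb controls and 151 ± 28.4 in CD25 controls. Its change was -1.22 ± 0.15 in AcP+AcPb and -0.88 ± 0.15 in AcP controls, both called, and -0.38 ± 0.15 in AcPb controls, which was not. Cenpe, a kinetochore motor, changed by -0.82, -0.80 and -0.48, and Cenpf, a large kinetochore protein, by -1.09, -0.92 and -0.64, with all 6 differences called. Nuf2, a part of the Ndc80 complex, had the largest log2 change in AcP+AcPb controls, -2.39 ± 0.34, but all 3 AcP+AcPb values (-0.4, -8.27 and -3.13) were below 0, so that size rests on the added 16. Its partner Ndc80 read 1.94, -6.52 and -4.85 in AcP+AcPb controls and 14.9, 19.2 and 29.8 in CD25 controls and was too dim to be tested.

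Of the 7 tested spindle and cytokinesis genes, 6 were called lower in AcP+AcPb controls, 5 in AcP controls and 2 in AcPb controls. Birc5 read 85.3, 52.2 and 15.5 in AcP+AcPb controls, 36.6, 42.8 and 63.1 in AcP controls, 94.0, 72.2 and 106 in AcPb controls, and 210.2, 151 and 200.3 in CD25 controls. Birc5, or survivin, of the chromosomal passenger complex, spread over a wide range in AcP+AcPb controls, yet all 9 arrays of the receptor arms lay below all CD25 controls. Its changes were -1.74 ± 0.29 in AcP+AcPb, -1.69 ± 0.29 in AcP and -0.93 ± 0.29 in AcPb controls, the last not called (limma, adjusted p = 0.060). Nusap1, which bundles spindle microtubules, read 114, 103 and 133 in AcP+AcPb controls, 183, 158 and 165 in AcP controls, 218, 194 and 227 in AcPb controls and 363, 259 and 374 in CD25 controls, and was called in all 3 arms. Prc1, which ties antiparallel microtubules together at the midzone, had its lowest mean in AcP controls, at 194 ± 42.4 against 428 ± 46.9 in CD25 controls, with 215 ± 46.9 in AcP+AcPb and 296 ± 64.6 in AcPb controls. Kif20a, a motor of cytokinesis that exceeded the dim filter on 10 arrays, changed by -1.51, -0.80 and -0.66, all called. Kif2c, which takes microtubules apart at centromeres, changed by -0.99 and -0.82, called, and -0.33, not called. Kif11, the motor that pushes spindle poles apart, was called in AcP+AcPb, at -0.70 ± 0.22, and not in AcP or AcPb controls, at -0.33 and -0.21.

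Mki67 and Top2a are the chromatin proteins most used to mark cycling cells. Top2a read 170.4, 127 and 138 in AcP+AcPb controls, 223, 199 and 236 in AcP controls, 335, 297 and 336 in AcPb controls, and 522, 359 and 509.5 in CD25 controls. Top2a, the topoisomerase that untangles chromosomes, was called lower in all 3 arms, at -1.56 ± 0.13, -1.01 ± 0.13 and -0.49 ± 0.13. Mki67 read 77.0, 16.4 and 46.0 in AcP+AcPb controls, 175, 153 and 140.0 in AcP controls, 206, 152 and 235 in AcPb controls, and 344, 183 and 314 in CD25 controls. Mki67, the Ki-67 antigen, was called lower in AcP+AcPb controls at -2.33 ± 0.33 (limma, adjusted p = 9.3e-05), whereas its -0.74 ± 0.33 in AcP and -0.44 ± 0.33 in AcPb controls were not called (adjusted p = 0.14 and 0.47). The AcP controls of Mki67 all lay below the CD25 controls, the nearest pair of values being 175 and 183.

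**Figure D2:**
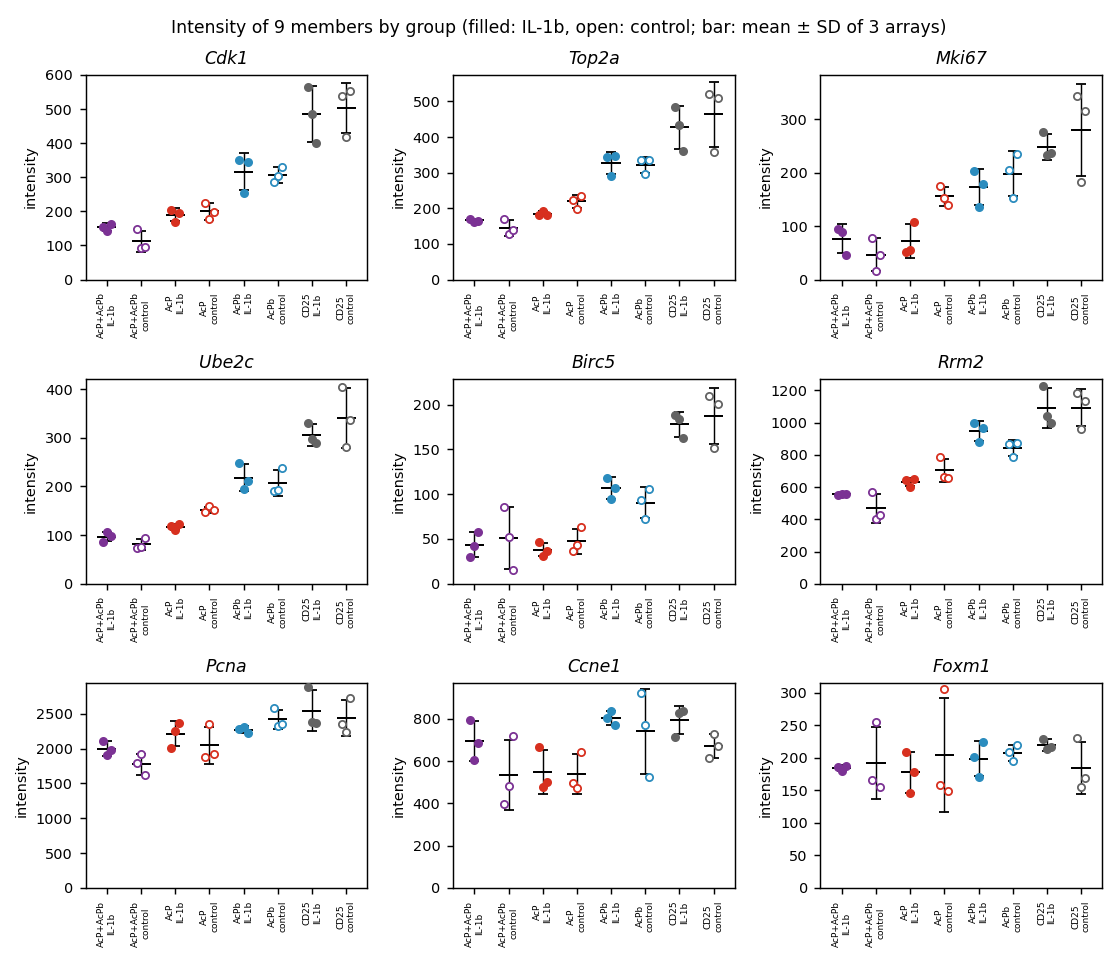
Intensity (vertical axis, linear, from 0) of 9 members on each array by group, filled for IL-1b and open for control, with the mean and SD of 3 arrays in black. Cdk1, Top2a, Ube2c and Rrm2 step up from AcP+AcPb to AcP, AcPb and CD25 arrays in both stimuli, Pcna spans a narrower relative range, and the Ccne1 and Foxm1 arrays overlap.

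All 4 tested genes of replication and nucleotide supply were called lower in AcP+AcPb controls, 2 in AcP and 1 in AcPb controls. Rrm2 read 572, 401 and 428 in AcP+AcPb controls, 788, 662 and 659 in AcP controls, 866, 786 and 872 in AcPb controls, and 1182, 961 and 1133 in CD25 controls. Rrm2, the subunit of ribonucleotide reductase made in S phase, was called lower in AcP+AcPb at -1.21 ± 0.11 and in AcP at -0.62 ± 0.11, and not in AcPb controls, at -0.37 ± 0.11 (limma, adjusted p = 0.056). Its partner subunit Rrm1 was called in all 3 arms, at -0.90, -0.84 and -0.35. Pcna read 1797, 1917 and 1617 in AcP+AcPb controls, 1873, 2348 and 1918 in AcP controls, 2581, 2322 and 2360.1 in AcPb controls, and 2358, 2237 and 2723 in CD25 controls. Pcna, the clamp of the replication fork, had the smallest called change in AcP+AcPb controls, -0.45 ± 0.10 (limma, adjusted p = 0.0041), and was not called at -0.25 ± 0.10 in AcP and -0.01 ± 0.10 in AcPb controls. Pclaf, which binds Pcna, averaged 169.8 ± 17.7 in AcP+AcPb controls, 313 ± 39.1 in AcP controls, 382 ± 43.6 in AcPb controls and 394 ± 49.7 in CD25 controls, and the AcP+AcPb arm was called. Tyms, thymidylate synthase, read between -9.24 and 15.3 on the 24 arrays and was too dim to be tested. Foxm1 read 166, 255 and 155 in AcP+AcPb controls, 158, 306 and 149 in AcP controls, 209.6, 195 and 219.6 in AcPb controls, and 231, 155 and 169 in CD25 controls. Foxm1, the transcription factor that drives many G2 genes, did not separate the arms on this probe set, with 0.04 ± 0.21 in AcP+AcPb (95% interval -0.41 to 0.49).

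**Figure D3:**
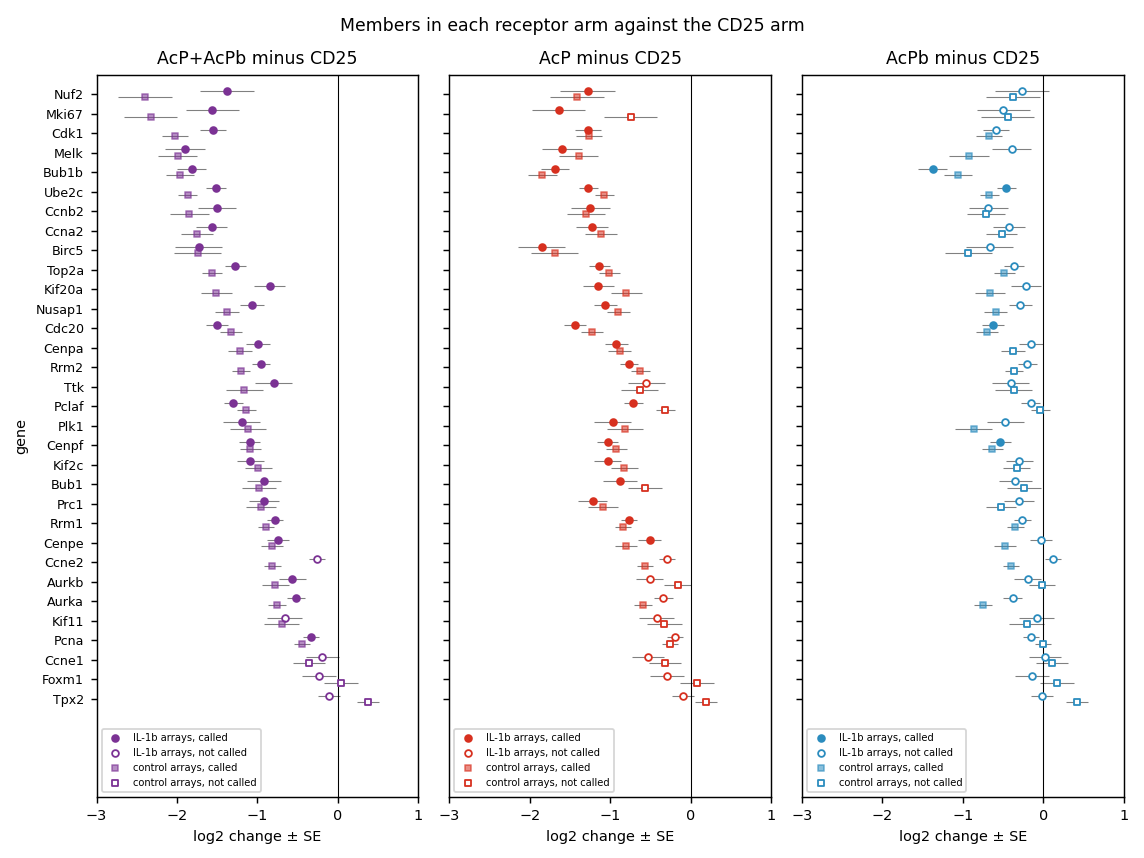
Log2 change (± SE) of the 32 tested members against CD25 in AcP+AcPb, AcP and AcPb neurons, on IL-1b arrays (circles) and control arrays (squares), filled where called; genes run down the page by their change in AcP+AcPb controls. Most points lie left of 0, farthest in the AcP+AcPb panel and nearest in the AcPb panel, where 14 squares and 4 circles are filled.

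Bub1b, Melk, Ttk, Kif20a and Nuf2 exceeded the filter level on 5, 9, 9, 10 and 13 arrays, and a gene that passes only through the group where it is high has to differ. Among the other 27 tested members, which lay above the filter on at least 22 arrays, 24 were called lower in AcP+AcPb, 18 in AcP and 11 in AcPb controls. Of all tested genes, dim ones included, 11.9%, 8.68% and 5.26% were called lower in these arms. In every alternative that tested the gene, the call and its sign were kept for 24 of the 29 members in AcP+AcPb. They were kept for 17 of the 22 in AcP, and in AcPb for Aurka alone of the 14. The 24 include the dim members Bub1b, Melk, Ttk, Kif20a and Nuf2, and the 17 include Bub1b, Melk and Kif20a. With the dim filter at the 60th percentile, 22 members were called in AcP+AcPb and 16 in AcP controls. Aurka, Bub1, Bub1b, Cenpe, Kif20a, Melk, Nuf2 and Ttk were tested in 19 alternatives and the other called members in 20. A lower count under a stricter filter therefore need not mean that calls were lost. The AcPb count was 5 without CD25 control 1 or CD25 control 3, 7 without AcPb control 2, 9 without AcPb control 1, and 5 when only the 6 arrays compared were fitted. Members whose arrays did not overlap, with the receptor arm lower, numbered 28 in AcP+AcPb (23.2% of all genes), 25 in AcP (14.6%) and 20 in AcPb controls (17.9%).

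Further probe sets of the same genes gave smaller median changes and were called only in part. In a fit of every probe set singly, 24 further probe sets of 19 members were tested. Of these, 12 were called lower in AcP+AcPb controls against CD25, 9 in AcP and 5 in AcPb controls, with none called higher. Their median log2 changes were -0.63, -0.43 and -0.30, beside -1.15, -0.82 and -0.46 over the 32 members on the probe sets used. With IL-1b, 12, 12 and 1 were called lower than CD25 in the same arms, and 8 were called higher in AcPb than in AcP neurons. The shares of all genes given above belong to the fit of genes, and no share over all probe sets stands beside these counts. Tpx2, which activates Aurka at the spindle, was not called on the probe set with the highest mean, 1447519_x_at, at 0.38 ± 0.14 in AcP+AcPb controls. Its probe sets 1428104_at and 1428105_at were called lower there, at -1.59 ± 0.17 and -1.28 ± 0.14 (limma, adjusted p = 1.1e-05 for both), with means of 57.2 in AcP+AcPb controls and 210.4 in CD25 controls on the first. Kif11 was lower by more on 1435306_a_at, at -1.31 ± 0.22, than on the probe set used, and 1452315_at was not called, at -0.34 ± 0.29. Foxm1 and Ccne1 were each not called on a further probe set either, at 0.12 ± 0.11 and -0.01 ± 0.16. Foxm1 had 4 probe sets on the array, and the rest of them are not given here.

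**Figure D4:**
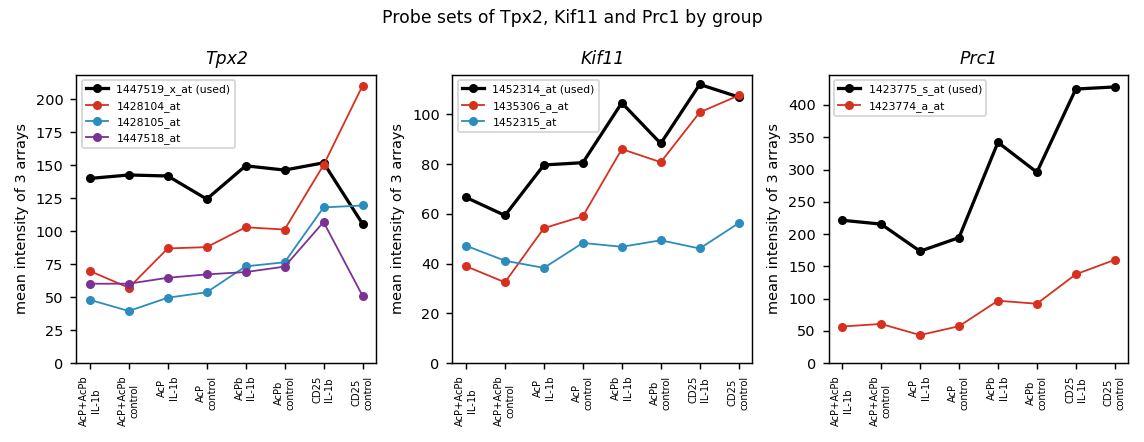
Mean intensity of 3 arrays (vertical axis, linear, from 0) of each probe set of Tpx2, Kif11 and Prc1 by group, in black for the probe set used. The Tpx2 probe set used is nearly level over the groups, while 1428104_at and 1428105_at climb from AcP+AcPb to CD25 arrays.

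Between the receptor arms themselves, unstimulated AcP+AcPb neurons were lower than AcP neurons for Ube2c, Rrm2 and Pclaf, and AcPb neurons were higher than AcP neurons for Bub1b and Rrm1; no other member was called. Bub1b lay below the dim filter in both arms, with 16.2, 14.6 and 11.4 in AcPb controls and 4.69, -10.8 and -3.52 in AcP controls, so its call rests on values near 0, and among the 27 brighter members Rrm1 was the 1 call. The background was 0.155% of all genes lower in the first comparison and 0.324% higher in the second, which share the AcP controls; in either direction it was 0.239% and 0.971%. Ube2c changed by -0.80 ± 0.12 (limma, adjusted p = 0.0059), Pclaf by -0.82 ± 0.12 (adjusted p = 0.0047) and Rrm2 by -0.59 ± 0.11 (adjusted p = 0.030), each a log2 change of AcP+AcPb over AcP. The Rrm2 difference was 0.041 when the probe sets of each gene were averaged. Mki67 had the widest difference between those arms, -1.59 ± 0.33, and was not called (adjusted p = 0.055). Rrm1 was higher in AcPb controls by 0.49 ± 0.10 (limma, adjusted p = 0.021) and Bub1b by 0.78 ± 0.18 (adjusted p = 0.042). None of these 5 calls was kept under every alternative run, and both counts were 0 with array weights or when only the arrays compared were fitted. With single arrays left out, 6 members were called in the first comparison without AcP+AcPb control 1. In the second, 0 were called without AcP control 2, AcPb control 1 or AcPb control 3, and 1 without AcP control 1 or AcPb control 2. The medians of the members were -0.35 and 0.33, beside -0.02 and -0.01 over all genes.

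On arrays with IL-1b, the members kept the CD25 arm highest and the AcP+AcPb and AcP arms lowest in mean level. Against CD25, 27 members were called lower in AcP+AcPb (8.34% of all genes), 23 in AcP (6.18%) and 4 in AcPb neurons (2.78%), again with none higher, beside 4.47%, 5.3% and 0.837% of all genes. Members whose arrays lay wholly below the CD25 arrays numbered 30 in AcP+AcPb (19.7% of all genes), 29 in AcP (16.4%) and 15 in AcPb neurons (15.6%). Median log2 changes were -1.03 in AcP+AcPb, -1.0 in AcP and -0.30 in AcPb neurons, beside -0.02, -0.01 and -0.02 over all genes. All 32 changes were below 0 in AcP+AcPb and in AcP neurons, and 30 in AcPb neurons. Among the 27 brighter members, 22 were called lower in AcP+AcPb, 19 in AcP and 3 in AcPb neurons. The members called in both stimuli numbered 27 in AcP+AcPb, 20 in AcP and 4 in AcPb neurons, beside 7.37%, 7.01% and 2.27% of all genes. The order AcP+AcPb, AcP, AcPb, CD25 held for 24 of 32 members, beside 7.58% of all genes. The members' mean log2 value was 6.83, 6.70 and 6.70 on AcP+AcPb arrays, 6.88, 6.76 and 6.88 on AcP arrays, 7.53, 7.31 and 7.46 on AcPb arrays and 7.90, 7.79 and 7.63 on CD25 arrays, so AcP+AcPb and AcP overlapped while the others stood apart.

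With IL-1b, Cdk1 read 155, 142 and 164 in AcP+AcPb IL-1b arrays, 205, 169 and 196 in AcP IL-1b arrays, 349.6, 255 and 345 in AcPb IL-1b arrays, and 566, 487 and 402 in CD25 IL-1b arrays. Ube2c read 86.5, 106 and 97.8 in AcP+AcPb IL-1b arrays, 118, 111 and 123 in AcP IL-1b arrays, 249, 195 and 211 in AcPb IL-1b arrays, and 331, 297 and 289 in CD25 IL-1b arrays. Both genes kept the order of the arms, and their changes against CD25 in AcP+AcPb neurons were -1.55 ± 0.16 for Cdk1 and -1.52 ± 0.12 for Ube2c. Top2a read 171, 163 and 164 in AcP+AcPb IL-1b arrays, 181, 192 and 181 in AcP IL-1b arrays, 345, 291 and 346 in AcPb IL-1b arrays, and 484, 435 and 362 in CD25 IL-1b arrays. Top2a was called lower in AcP+AcPb and AcP neurons, at -1.28 ± 0.13 and -1.14 ± 0.13, and not in AcPb neurons, at -0.36 ± 0.13 (limma, adjusted p = 0.14). Birc5 averaged 43.5 ± 14.2 in AcP+AcPb, 38.0 ± 7.54 in AcP, 107 ± 12.1 in AcPb and 178 ± 13.9 in CD25 neurons, and Rrm2 averaged 554 ± 5.74, 632 ± 26.9, 947 ± 63.0 and 1090.4 ± 123 in the same arms. Mki67 was called lower in AcP than in CD25 neurons with IL-1b, at -1.64 ± 0.33 (limma, adjusted p = 0.0028). Its change between those arms differed from that in controls by -0.90 ± 0.47, which was not called (adjusted p = 0.59). Pcna stayed the smallest called change in AcP+AcPb neurons, at -0.34 ± 0.10.

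In AcPb neurons with IL-1b, the 4 members called lower than CD25 were Bub1b at -1.38 ± 0.18, Cdc20 at -0.62 ± 0.14, Cenpf at -0.53 ± 0.13 and Ube2c at -0.46 ± 0.12. Bub1b exceeded the dim filter on 5 arrays, all of CD25 neurons, and so passed it only through the group in which it was high; 3 calls remain without it. The count of 4 was 1 without AcPb IL-1b array 2 or 3 and 2 without CD25 IL-1b array 1 or 2. Cdc20 on its other bright probe set, 1416664_at, was not called there, at -0.08 ± 0.14. CD25 IL-1b array 3 was the lowest of its group for 25 members, beside 32.5% of all genes, and its astrocyte markers summed to 26286, against 35647 and 30169 on the other CD25 IL-1b arrays; without it 27, 25 and 3 members were called lower in AcP+AcPb, AcP and AcPb neurons.

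Set against AcP directly, 19 members were called higher in AcPb neurons with IL-1b, beside 3.43% of all genes higher and 9.19% in either direction, and 0 differed between AcP+AcPb and AcP neurons, beside 0.0633% of all genes. For AcP+AcPb over AcP, limma gave 1 member at an unadjusted p under 0.05, beside 12.2% of all genes. The members' median was 0.56 for AcPb over AcP, beside -0.01 over all genes, and -0.08 for AcP+AcPb over AcP, beside -0.02. Melk (1.20 ± 0.25), Birc5 (1.19 ± 0.29), Mki67 (1.14 ± 0.33) and Kif20a (0.93 ± 0.19) had the largest called log2 changes of AcPb over AcP, and Ccne2 (0.42 ± 0.10) the smallest. Melk and Kif20a exceeded the dim filter on 9 and 10 arrays and read 9.26, -0.3 and 16.9 and 12.9, 10.8 and 12.3 in AcP neurons with IL-1b, so their sizes and ranks depend on the added 16, and 17 of the 19 calls were among the 27 brighter members. The count of 19 was 12 without AcPb IL-1b array 1 or 3. In every alternative that tested the gene, 7 of the 19 kept the call: Cdc20, Cenpa, Nusap1, Pclaf, Prc1, Ube2c and the dim member Kif20a. Cell markers differed in the same comparison: of 17 neuron markers 4 were called lower and 15 were below 0 (median -0.12), of 12 progenitor markers 3 were called higher (median 0.29), and of 11 tested endothelial, mural and fibroblast markers 3 were called higher and 1 lower (median 0.39). Their part in the members' difference was not tested. In 23 members the AcPb and AcP arrays did not overlap (15.5% of all genes). The difference had the same sign in controls for 31 of the 32 members, beside 63.9% of all genes. At an unadjusted p under 0.05, limma gave 20 members in controls and 24 with IL-1b, beside 12.4% and 24.9% of all genes. For the response difference AcPb minus AcP, 0 members were called, beside 0.26% of all genes.

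IL-1b itself moved no member past the threshold in any arm. In AcP+AcPb neurons 0 of the 32 members were called beside 0.457% of all genes, in AcP neurons 0 beside 0.542%, in AcPb neurons 0 beside 0.00703%, and in CD25 neurons 0 beside 0%. At an unadjusted p under 0.05, limma gave 6, 4, 2 and 2 of the 32 members in these arms, beside 11.1%, 8.79%, 11.0% and 6.04% of all genes. The median responses were 0.14 in AcP+AcPb, -0.13 in AcP, 0.10 in AcPb and -0.05 in CD25 neurons, and over all genes they lay between 0.00 and 0.01. In AcP+AcPb neurons 24 of the 32 responses were above 0, in AcPb neurons 23, in AcP neurons 10 and in CD25 neurons 11. IL-1b raised Cxcl10, a chemokine known to follow IL-1 signalling, in AcP+AcPb neurons (limma, adjusted p = 1.5e-08) and AcP neurons (adjusted p = 4.5e-10). Cxcl10 averaged 2489 ± 649 with IL-1b and 54.3 ± 29.1 without in AcP+AcPb neurons and 2512 ± 277 and 13.5 ± 15.8 in AcP neurons.

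Mki67 in AcP neurons had the largest response. It read 52.4, 55.5 and 108 with IL-1b and 175, 153 and 140.0 in controls, without overlap. That was a log2 change of -1.02 ± 0.33 (95% interval -1.71 to -0.33), which did not pass after adjustment (limma, adjusted p = 0.29). In AcP+AcPb neurons Mki67 read 94.5, 89.1 and 45.3 with IL-1b and 77.0, 16.4 and 46.0 in controls, a change of 0.64 ± 0.33 with overlapping arrays. The difference between these responses, AcP+AcPb minus AcP, was 1.66 ± 0.47 (limma, adjusted p = 0.66).

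Kif20a showed opposite signs in the same arms, 0.44 ± 0.19 in AcP+AcPb and -0.56 ± 0.19 in AcP neurons, with neither called and the difference at 1.01 ± 0.27 (limma, adjusted p = 0.66). Ccne2 had the smallest adjusted p among the responses, in AcP+AcPb neurons, where it read 80.7, 84.6 and 86.6 with IL-1b and 61.1, 57.9 and 69.2 in controls, a change of 0.35 ± 0.10 (limma, adjusted p = 0.16). The Ccne2 arrays did not overlap. In AcPb neurons Ccne2 changed by 0.32 ± 0.10, in AcP by 0.06 ± 0.10 and in CD25 neurons by -0.21 ± 0.10. Cdk1 changed by 0.43 ± 0.16 in AcP+AcPb neurons (95% interval 0.09 to 0.76), by -0.07 ± 0.16 in AcP, 0.03 ± 0.16 in AcPb and -0.05 ± 0.16 in CD25 neurons. Top2a changed by 0.18 in AcP+AcPb (-0.09 to 0.45), -0.23 in AcP (-0.50 to 0.04), 0.02 in AcPb (-0.25 to 0.29) and -0.10 in CD25 neurons (-0.38 to 0.17), the brackets holding 95% intervals. For Pcna the 4 intervals were -0.04 to 0.38, -0.09 to 0.33, -0.30 to 0.12 and -0.15 to 0.27, in the same order of arms.

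Tpx2 in CD25 neurons changed by 0.47 ± 0.14 on the probe set used, reading 149.7, 152 and 154 with IL-1b and 97.5, 119.8 and 99.8 in controls, and was not called (limma, adjusted p = 0.81). Its probe set 1428104_at ran the other way there, with means of 150.2 with IL-1b and 210.4 in controls. Members whose IL-1b and control arrays did not overlap numbered 5 higher in AcP+AcPb neurons (9.83% of all genes), 7 lower in AcP neurons (5.22%), 4 higher and 1 lower in AcPb neurons (10.2% and 12.9%), and 2 higher in CD25 neurons (8.37%). With the array name code as a fixed block, 0 members were called in the AcP+AcPb response and their median was 0.14.

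**Figure D5:**
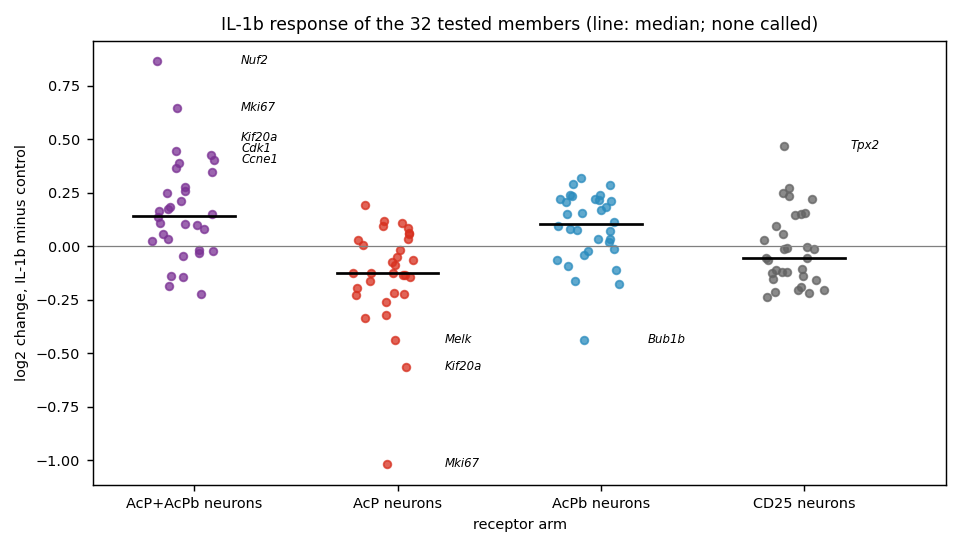
Log2 change with IL-1b over control (vertical axis) of the 32 tested members in each arm, with a line at the median and names beside changes beyond 0.4. The medians lie at 0.14, -0.13, 0.10 and -0.05 in AcP+AcPb, AcP, AcPb and CD25 neurons, and none of the points was called.

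In tests of the difference between responses, 0 members were called for AcP+AcPb minus CD25, AcP minus CD25, AcPb minus CD25, AcP+AcPb minus AcP, and AcPb minus AcP, beside 0.19%, 0.246%, 0.0211%, 0.00703% and 0.26% of all genes. At an unadjusted p under 0.05, limma gave 4, 1, 4, 8 and 3 of the 32 members in that order, beside 11.4%, 9.07%, 11.2%, 5.30% and 8.34% of all genes. For AcP+AcPb minus CD25, 1 member was called without CD25 IL-1b array 1. For AcPb minus AcP, Cdc20 was called on its probe set 1416664_at, at 1.12 ± 0.20 (limma over all probe sets, adjusted p = 0.019), a probe set singled out after its values were seen. On it, AcPb neurons averaged 303 with IL-1b and 194 without, and AcP neurons 123 with IL-1b and 185 without. On the brighter probe set 1439377_x_at the Cdc20 difference was 0.29 ± 0.19, in the same direction and not called (adjusted p = 0.72).

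Wider lists of cell cycle genes that are no members were counted over the same fits. Of all genes, 11.9%, 8.68% and 5.26% were called lower than CD25 in AcP+AcPb, AcP and AcPb controls, and 6.81%, 6.86% and 2.36% higher. Of 57 tested further genes of the spindle, kinetochore, condensin and cytokinesis, 38 were lower and 1 higher in AcP+AcPb controls against CD25, 26 lower and 1 higher in AcP controls, and 14 lower and 1 higher in AcPb controls. Pbk, a mitotic kinase, changed by -1.78, -1.20 and -0.72 in these arms. Sgo2a, a guardian of centromere cohesion, and Kif4, a chromosome motor, changed by -2.41 and -1.78 in AcP+AcPb, Ckap2, a spindle protein, by -1.31 in AcP, and Dlgap5, which stabilises spindle fibres, by -1.94 in AcPb controls. The gene called higher, named after its values were seen, was Nek2, a centrosomal kinase, at 0.52, 0.51 and 0.46. Medians over this list were -0.68, -0.44 and -0.31. Of 45 tested genes of replication licensing, fork and DNA synthesis, 29, 15 and 5 were lower, with Brca1 alone higher, in AcP controls. Mcm5, of the helicase that unwinds origins, changed by -1.54, -0.79 and -0.48. Mcm6, of the same helicase, changed by -1.79 in AcP+AcPb and -0.82 in AcP controls, and Uhrf1, which carries DNA methylation through replication, by -0.63 in AcPb controls. The median was -0.48 in AcP+AcPb, -0.30 in AcP and -0.11 in AcPb controls. Of 45 tested cell cycle regulators, 19, 19 and 13 were lower; Ccnd1, the D-type cyclin of G1, changed by -1.22, -1.08 and -0.73, and Cdkn2b, an inhibitor of its kinases, by -1.49, -2.36 and -2.55. The regulator called higher was E2f1 in AcP+AcPb (0.22) and Cdkn2d in AcP controls (0.28), both, like Brca1, named after their values were seen.

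With IL-1b, the same lists of 57, 45 and 45 tested genes had 33, 20 and 14 lower in AcP+AcPb than in CD25 neurons, beside 8.34% of all genes, and 28, 20 and 15 lower in AcP neurons, beside 6.18%. In AcPb neurons 2, 0 and 4 were lower, beside 2.78%, and the first 2 counts are near that share or below it. AcPb over AcP gave 19, 18 and 5 higher, beside 3.43%, with Gins2, of the replication helicase, at 1.20 and Ect2 at 0.86. Cdkn2b alone was lower in AcPb than in AcP neurons, by a log2 change of -2.46. Of these lists, 4 genes responded to IL-1b, beside 0.457% of all genes called in AcP+AcPb and 0.542% in AcP neurons. Mcm5, Mcm4 and Dbf4, all needed to license or fire origins, rose in AcP+AcPb neurons by 0.67 ± 0.13 (limma, adjusted p = 0.028), 0.51 ± 0.11 (adjusted p = 0.045) and 0.49 ± 0.10 (adjusted p = 0.037), and Cdkn2b rose in AcP neurons by 2.27 ± 0.40 (adjusted p = 0.0078). AcP+AcPb controls 1 and 2 carried array code 22 and the IL-1b arrays 23, and the part of the code in the 3 rises was not tested. In the response differences AcP+AcPb minus CD25 and AcP+AcPb minus AcP, 0 of the 45 replication genes were called, beside 0.19% and 0.00703% of all genes. For AcP minus CD25, 0 of the 45 regulators were called, beside 0.246%.

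Markers of other cells differed between the same arms. Summed progenitor markers ran from 15898 to 17633 on AcP+AcPb arrays, 14980 to 16645 on AcP arrays and 16499.5 to 18011 on AcPb arrays, against 18787 to 20838 on CD25 arrays. Over the 12 progenitor markers the median log2 change in controls against CD25 was -0.07 in AcP+AcPb, -0.26 in AcP and 0.05 in AcPb, with 6, 7 and 5 of the 12 below 0; 3, 3 and 2 were called lower and 1 higher in each arm. Nes and Vim, filaments of progenitors and young glia, were lower than in CD25 controls in AcP+AcPb (-0.74 and -0.83), AcP (-1.05 and -1.11) and AcPb controls (-0.99 and -0.81). Hes5, a Notch target of progenitors, ran the other way, at 1.00, 1.20 and 0.81, and Sox2 was lower in AcP+AcPb (-0.46) and AcP controls (-0.42). Markers of endothelial cells, mural cells and fibroblasts summed to 1201 to 2263 on arrays of the receptor arms and 1941 to 2899 on CD25 arrays, with Pecam1 at or below 0. Of the 11 tested, 8, 6 and 5 were below 0 against CD25 in AcP+AcPb, AcP and AcPb controls. Their medians were -0.32, -0.25 and 0.002, and 5, 4 and 2 were called lower, with 0 higher. The lowest change in each arm was that of Acta2 (-1.06, -1.42 and -1.04). Of 11 astrocyte markers, 4 were called higher and 1 lower in AcP+AcPb controls, 5 higher and 3 lower in AcP controls, and 1 higher and 2 lower in AcPb controls, with medians of 0.13, 0.17 and 0.19. Sparcl1, a secreted matrix protein, was higher (0.68, 0.80 and 0.59), and the filament Gfap was lower in AcP (-1.98) and AcPb controls (-1.73). Astrocyte sums overlapped between all arms, from 24678 to 35647. Of 9 tested markers of the oligodendrocyte lineage, 7, 3 and 2 were below 0 against CD25 in AcP+AcPb, AcP and AcPb controls. Their medians were -0.30, 0.11 and 0.14, with 1 called lower in AcP+AcPb and 1 called higher in each of AcP and AcPb. In AcP+AcPb against AcP controls, 8 of the 9 were below 0 (median -0.43), with 0 called. Cxcl10 also differed without IL-1b, at 54.3 ± 29.1 in AcP+AcPb, 13.5 ± 15.8 in AcP and 12.5 ± 6.74 in AcPb controls against 199 ± 26.5 in CD25 controls. The part of these cells and of that state in the members' differences was not tested.

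Over the 24 arrays, each tested member was set against the mean of the other members, as a description of arrays that share their groups. Pearson's r was 0.989 for Top2a, 0.979 for Cdk1, 0.977 for Nusap1 and 0.971 for Ube2c, and lowest for Ccne1 (0.482), Foxm1 (0.235) and Tpx2 (-0.174) on the probe sets used. The genes most like the members' mean were sought outside the members and outside the cell cycle and marker lists. Over the 24 arrays the closest were Cep55 (r = 0.974), which acts in the last step of cytokinesis, Shcbp1 (r = 0.969) and Ss18 (r = 0.939). Slc38a1 (r = 0.931) and Ccnf (r = 0.929), a cyclin of a ubiquitin ligase, followed. Genes of those lists were not ranked. The 15 tested members with a CHR match had a median log2 change of -1.22 in AcP+AcPb controls against CD25, and the 11 without one had -1.14.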

How the data were processed

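The deposited values are linear probe set intensities of 24 arrays, some below 0 (16.4% to 18.2% of an array), and the sources used here do not give how the authors summarised and scaled them. Detection calls were not used, and precision is limited by the 3 arrays a group. Of 45077 probe sets, 40 controls were left out; a probe set was named where the annotation gave it 1 symbol, and each gene took the probe set with the highest mean. Values below 0 were set to 0, 16 was added, and log2 taken. A gene was tested where 3 or more arrays exceeded their own 40th percentile. Groups came from the sample titles.

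One model of 8 group means was fitted to all 24 arrays with limma 3.58.1 (R 4.3.3), with 16 residual and 1.94 prior degrees of freedom, and was tested on simulated data. P-values are two-sided and adjusted by Benjamini-Hochberg over 14215 genes within each of 19 comparisons. With 3 arrays against 3, an exact permutation test cannot give a p under 0.1, so none was used. Members, lists and tests were chosen with earlier results of these data known. By rule, all members are accounted for, and other genes are named where called from a list, at most 4 a list and comparison by size. Also named are genes among the 10 most alike outside all lists, and markers from their own lists. Alternatives changed the scaling, the addition of 16, the dim filter, the probe set rule, the arrays fitted, weights, trend and blocks, and left out each array in turn.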

Additional observations from a re-analysis of the deposited data

How the results depend on the processing

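Leaving out each array gave 28 to 29 members called for unstimulated AcP+AcPb against CD25, 21 to 23 for AcP against CD25 and 5 to 13 for AcPb against CD25. With IL-1b it gave 23 to 27, 21 to 25 and 1 to 4 in the same arms, and 12 to 16 for AcPb against AcP. It gave 2 to 6 for unstimulated AcP+AcPb against AcP, 0 to 2 for unstimulated AcPb against AcP, and 0 to 1 for the response difference AcP+AcPb minus CD25. Other alternatives gave 22 to 30, 16 to 22 and 5 to 19 members for the unstimulated arms against CD25, and 20 to 28, 19 to 25 and 0 to 6 with IL-1b. With only the arrays compared, 5 members were called for unstimulated AcPb against CD25, and 0 each for unstimulated AcP+AcPb against AcP, unstimulated AcPb against AcP, and AcPb against CD25 with IL-1b. Array weights gave 0 for both unstimulated comparisons with AcP, and 1 each for the AcPb response and for AcP+AcPb against AcP with IL-1b. Unstimulated AcP+AcPb against AcP had 5 with the filter at the 60th percentile, the generalised log or the intensity trend. Unstimulated AcPb against AcP had 1 with centred medians, single probe sets, the generalised log, no filter or 64 added, and 0 with averaged probe sets. With IL-1b, AcP+AcPb against AcP had 1 with centred medians or the trend, and AcPb against CD25 had 2 with averaged probe sets. Rrm2 reversed to 0.041 with averaged probe sets (unstimulated AcP+AcPb against AcP). The AcPb minus AcP response difference and the choice without probe sets ending in _x_at were added after seeing the data, and that difference had 1 member with averaged probe sets or without those probe sets. The cause of these moves was not tested.

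Same-numbered arrays did not all correlate above 0.1 in any comparison, and the main fit did not pair them. That rule cannot show that no pairing exists. In unstimulated AcP+AcPb against AcP the correlations were 0.06, 0.29 and 0.26 for arrays 1, 2 and 3. The replicate block gave 6 members for unstimulated AcP+AcPb against AcP and 5 for AcPb against AcP, and counts within 1.5 times elsewhere.

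The signal over background limits the dim members: a value near 0 has no size of its own beyond the added 16.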

Other observations

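The 3 members that were too dim to be tested had these levels. Kif23, the motor of centralspindlin in cytokinesis, averaged 12.6 ± 5.26 in AcP+AcPb, 20.6 ± 5.78 in AcP, 9.36 ± 18.1 in AcPb and 7.49 ± 1.99 in CD25 controls on the probe set used (SD, n = 3 each). Ndc80 averaged -3.14 ± 4.48 in AcP+AcPb, 14.4 ± 9.24 in AcP, 10.6 ± 1.37 in AcPb and 21.3 ± 7.69 in CD25 controls. Tyms averaged 1.40 ± 9.69, 2.92 ± 12.3, 7.48 ± 7.83 and 11.7 ± 2.75 in the same groups.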
